A study of Homo sapiens with 14 samples.

Results

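The 2 short hairpins used to deplete ZBP1 in the human multiple myeloma cell line MM1.S were compared directly with each other, over 4 of the 14 libraries of the study: 2 carrying shRNA1 and 2 carrying shRNA2. The libraries were chosen by their labels. ZBP1 binds left-handed double-stranded RNA and DNA in the cell and can start necroptosis through RIPK3 and MLKL. A short hairpin RNA is expressed from an integrated lentivirus and cut into a guide strand that directs the silencing machinery to a matching transcript. Guides can also lower other transcripts through short stretches that pair with them, so 2 hairpins to 1 target need not give the same profile. The direct comparison asks what separates the 2 hairpins, whether through the depth of the knockdown or through other transcripts.

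All cells were MM1.S, a line from a patient with myeloma, kept in RPMI medium containing FBS. They had received lentivirus with a scramble control (2 libraries), shRNA1 against ZBP1 (2) or shRNA2 against ZBP1 (2). No dose, time after transduction or genotype was given. A second myeloma line, H929, carried the same hairpins in 8 libraries, with a scramble group for each hairpin, and was used for a comparison that shares no library with MM1.S. Poly(A)-selected RNA was sequenced. Reads in genes numbered 20.46 to 24.91 M for the 4 hairpin libraries of MM1.S, against the 2 scramble libraries at 27.26 and 28.42 M; the 8 H929 libraries held 15.93 to 22.25 M. The labels do not say whether replicate libraries stem from separate cultures, so the p-values reflect the scatter of these libraries alone and that scatter may be technical. Levels are in CPM, a gene's share of the library's reads (counts per 1e6), after scaling between libraries. A difference is log2 of shRNA2 over shRNA1 with its standard error (n = 2 libraries a group), and a gene was called higher or lower with shRNA2 where edgeR's quasi-likelihood test gave an adjusted p under 0.05. Each of the 12 markers of MM1.S and plasma cells exceeded 1 CPM in at least 1 MM1.S library. In these bulk samples, fewer cells of a type and less RNA per cell cannot be told apart.

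ZBP1 (ENSG00000124256, GRCh38 chromosome 20, 57603846 to 57620576, minus strand) was at 138 and 146 CPM with scramble. It was at 22.2 and 26.3 CPM with shRNA1 and at 14.8 and 18.0 CPM with shRNA2. Both hairpins left all 4 libraries far below scramble, and the shRNA2 libraries lay below both shRNA1 libraries, with no overlap. The hairpins left 17.1% and 11.6% of the scramble mean. Between them ZBP1 differed by -0.56 ± 0.17 (edgeR adjusted p = 0.0290). That call was lost without shRNA1 replicate 2 (-0.43, edgeR adjusted p = 0.102) or shRNA2 replicate 1 (-0.42, edgeR adjusted p = 0.238). In H929 the hairpin difference in ZBP1 was -0.31 ± 0.13 (limma adjusted p = 0.0699) and was not called.

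Partners and neighbours of ZBP1 gave small differences. MLKL, the executor of necroptosis, was at 11.1 and 10.8 CPM with shRNA1 and 7.20 and 7.43 with shRNA2, a difference of -0.59 ± 0.16 (edgeR adjusted p = 0.0207). RIPK3, the kinase that ZBP1 engages, was at 5.80 and 6.52 CPM with shRNA1 and 6.19 and 6.83 with shRNA2, so that the groups overlapped; its difference was 0.08 ± 0.18 (edgeR adjusted p = 0.759). ADAR, which edits double-stranded RNA and limits ZBP1 activation, was at 834 and 851 CPM with shRNA1 and 1051 and 1088 with shRNA2, a difference of 0.34 ± 0.11 (edgeR adjusted p = 0.0418). TBK1, the kinase of IRF3, gave 0.49 ± 0.17 (edgeR adjusted p = 0.0452). IRF3, a transcription factor downstream of nucleic acid sensors, gave 0.16 ± 0.14 (edgeR adjusted p = 0.413), and passed only with the replicate number as a block (edgeR adjusted p = 0.00402). The calls of MLKL, ADAR and TBK1 rested on small margins: ADAR was not called without any 1 of the 4 libraries (edgeR adjusted p of 0.118 to 0.273), TBK1 was not called without shRNA1 replicate 2, shRNA2 replicate 1 or shRNA2 replicate 2 (0.218, 0.269 and 0.0517), and MLKL was not called without shRNA2 replicate 1 or 2 (0.122 and 0.0968).

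Across the transcriptome the hairpins differed widely. Of 17266 genes tested, 3134 (18.2%) were higher and 3847 (22.3%) lower with shRNA2. Differences of 2-fold or more were called for 870 genes higher (5.04%) and 2303 lower (13.3%). With the replicate number as a block, 5650 genes (32.7%) were higher and 5728 (33.2%) lower. Without shRNA2 replicate 2, 1936 genes were higher and 3025 lower. The plot of every gene tested shows that the lower side reached further: the 15 lowest named genes, chosen by size among called genes of at least 5 CPM, lay between -6.79 and -4.13, and the 15 highest between 1.91 and 2.92.

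**Figure D1:**
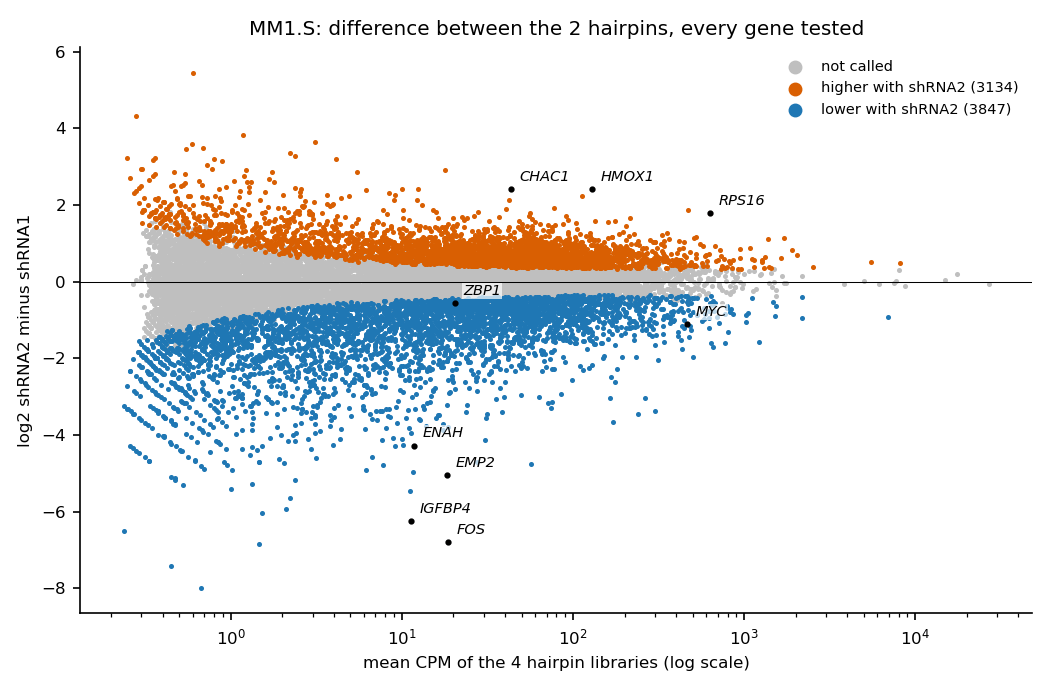
Difference between the hairpins (log2 shRNA2 minus shRNA1, vertical axis) against the mean CPM of the 4 hairpin libraries (horizontal, log scale) for the 17266 genes tested in MM1.S. Colours mark the 3134 genes called higher and the 3847 called lower with shRNA2; ZBP1 lies at -0.56, FOS at -6.79 and IGFBP4 at -6.26.

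The scramble libraries place these differences. Among the 3847 genes lower with shRNA2, the scramble level lay above both hairpins for 859, between them but nearer shRNA1 for 1014, between them but nearer shRNA2 for 1140, and below both for 834. Among the 3134 genes higher with shRNA2, these numbers were 842, 822, 827 and 643. In the same order the shares were 22.3%, 26.4%, 29.6% and 21.7% of the lower genes and 26.9%, 26.2%, 26.4% and 20.5% of the higher genes. Over all genes tested they were 32.7%, 16.4%, 17.3% and 33.7%. The hairpin farther from scramble was shRNA2 for 1873 (48.7%) of the lower genes and shRNA1 for 1669 (53.3%) of the higher genes. Over all genes tested it was shRNA2 for 48.5% and shRNA1 for 51.5%. The genes that separated the hairpins were thus split almost evenly between those where shRNA1 and those where shRNA2 lay farther from scramble. The hairpins were set against the same scramble libraries, so no overlap between the 2 comparisons with scramble is given.

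FOS, a subunit of the AP-1 transcription factor, was the lowest named gene. It was at 22.5 and 21.0 CPM with scramble, 32.4 and 41.5 with shRNA1 and 0.168 and 0.482 with shRNA2, which are 4 and 12 reads in the shRNA2 libraries. It was thus low with shRNA2 alone, and the difference was -6.79 ± 0.33 (edgeR adjusted p = 2.5e-05). EMP2, a tetraspan membrane protein, was at 24.9 and 22.3 CPM with scramble, 32.8 and 38.3 with shRNA1 and 1.14 and 1.00 with shRNA2, a difference of -5.05 ± 0.21 (edgeR adjusted p = 2.3e-05). ENAH, which extends actin filaments, was at 9.78 and 9.50 CPM with scramble, 23.7 and 21.0 with shRNA1 and 1.14 and 1.17 with shRNA2 (-4.28 ± 0.20, edgeR adjusted p = 2.3e-05). In all 3 genes the shRNA1 libraries were above scramble and the shRNA2 libraries further below it.

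More of the lowest genes were high with shRNA1 and nearer scramble with shRNA2. Of the 15, the scramble level lay nearer shRNA2 for 9 and below both for MMP9, against 5 nearer shRNA1 (FOS, EMP2, TGFBR3, ENAH and IL27RA). MMP9, a secreted gelatinase, was at 0.469 and 0.330 CPM with scramble, 20.1 and 23.7 with shRNA1 and 0.463 and 0.522 with shRNA2 (-5.46 ± 0.24, edgeR adjusted p = 2.3e-05). IGFBP4, which binds insulin-like growth factors, was at 1.06 and 1.43 CPM with scramble, 22.7 and 21.9 with shRNA1 and 0.295 and 0.281 with shRNA2 (-6.26 ± 0.24, edgeR adjusted p = 2.3e-05). PLXND1, a semaphorin receptor, was at 15.3 and 16.4 CPM with scramble, 97.3 and 122 with shRNA1 and 3.45 and 4.70 with shRNA2 (-4.75 ± 0.21, edgeR adjusted p = 2.3e-05). In each of these the shRNA1 libraries stood above the other 4. CHRNA1, a muscle acetylcholine receptor subunit, APBB1, MILR1, TSPAN18, PLCH2, ADAMTS3 and ZNF467 followed the same order, with differences of -4.96 to -4.13.

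On the other side, the mean log2 level of scramble lay below both hairpins for 5 of the 15 highest genes. HMOX1, the heme oxygenase induced by oxidative stress, was at 19.1 and 24.2 CPM with scramble, 38.4 and 43.3 with shRNA1 and 228 and 209 with shRNA2 (2.41 ± 0.14, edgeR adjusted p = 3.8e-05). TMC4, a transmembrane channel-like protein, was at 3.36 and 4.22 CPM with scramble, 2.76 and 5.65 with shRNA1 and 26.6 and 36.6 with shRNA2 (2.92 ± 0.31, edgeR adjusted p = 3.1e-04). DDX60, a helicase linked to RNA sensing and induced by interferon, was at 0.665 and 0.660 CPM with scramble, 4.54 and 3.16 with shRNA1 and 24.2 and 17.9 with shRNA2 (2.43 ± 0.24, edgeR adjusted p = 2.1e-04). In these genes the shRNA2 libraries stood above the other 4. The scramble libraries of TMC4 lay within the range of shRNA1, while those of HMOX1 and DDX60 lay below it. SLCO2B1, an organic anion transporter, and CHAC1 were the others of the 5, but the scramble libraries of CHAC1 differed from each other, with 1 below and 1 above shRNA1.

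For another 5 of the 15 highest, the mean log2 level of scramble lay above both hairpins or nearer shRNA2. EIF3L, a subunit of the translation initiation factor eIF3, was at 165 and 146 CPM with scramble, 38.3 and 40.2 with shRNA1 and 192 and 180 with shRNA2 (2.24 ± 0.13, edgeR adjusted p = 3.8e-05). UBE2L3, a ubiquitin-conjugating enzyme, was at 134 and 114 CPM with scramble, 31.7 and 32.8 with shRNA1 and 123 and 122 with shRNA2 (1.91 ± 0.13, edgeR adjusted p = 5.5e-05). MORC4, CAMTA1 and BCL7A were placed likewise. In the plot of levels by library, EIF3L shows as 4 libraries near 1 level and 2 well below. Of all the named genes, 153 by the rule, 85 share bases with a neighbouring gene, 71 with one on the other strand, and strand use in counting is not stated, so their reads may include those of the neighbour.

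**Figure D2:**
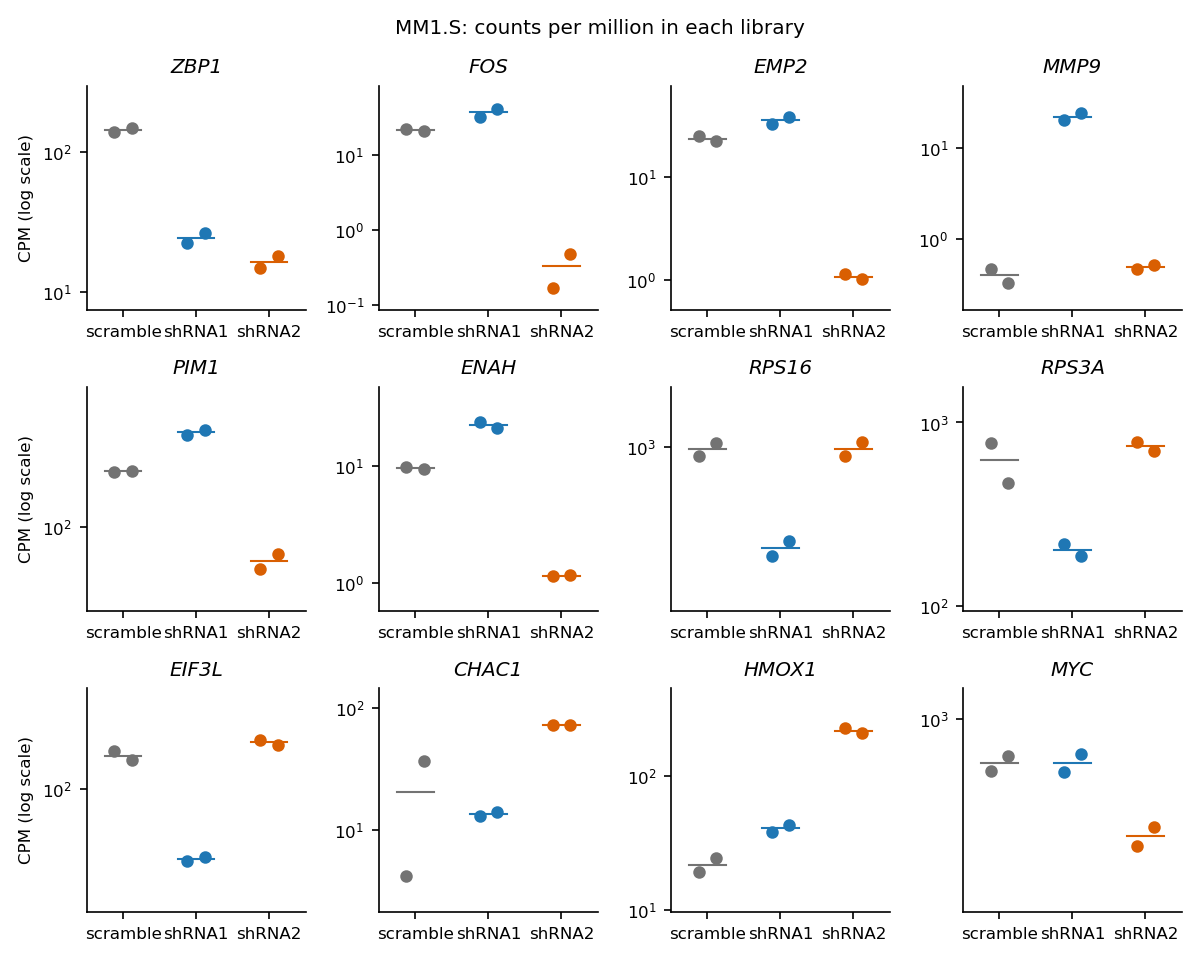
CPM (log scale, vertical) in each of the 6 MM1.S libraries for 12 genes, with 2 points per group and a bar at their mean. ZBP1 was low with both hairpins; FOS, EMP2 and MYC were low with shRNA2; MMP9 was high with shRNA1; RPS16, RPS3A and EIF3L were low with shRNA1; CHAC1 and HMOX1 were highest with shRNA2.

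Immediate early genes, which cells transcribe within minutes of a stimulus, were mostly lower with shRNA2: 20 of 30 tested were lower and 4 higher, with a median difference of -1.13 against -0.003 over all genes (22.3% lower, 18.2% higher). The block gave 23 lower and 7 higher. DUSP1, a phosphatase of MAP kinases, was at 43.1 and 42.1 CPM with scramble, 57.1 and 60.3 with shRNA1 and 11.2 and 16.7 with shRNA2 (-2.07 ± 0.20, edgeR adjusted p = 1.9e-04). KLF2, a zinc finger factor of lymphocyte quiescence, was at 40.2 and 62.2 CPM with scramble, 9.23 and 16.1 with shRNA1 and 2.32 and 3.74 with shRNA2 (-2.06 ± 0.32, edgeR adjusted p = 0.00171), so it was low with both hairpins and lowest with shRNA2. MYC was at 582 and 681 CPM with scramble, 577 and 694 with shRNA1 and 266 and 325 with shRNA2 (-1.11 ± 0.15, edgeR adjusted p = 9.5e-04). For MYC, shRNA1 overlapped scramble and shRNA2 stood below all 4 other libraries.

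Genes of NF-kB, of cytokine receptors and of B cell identity lay on the same side. Among NF-kB subunits, regulators and targets, 20 of 37 were lower and 2 higher (median -0.60). LTB, a lymphotoxin subunit, was at 1.72 and 1.91 CPM with scramble, 29.9 and 29.6 with shRNA1 and 2.53 and 2.81 with shRNA2 (-3.48 ± 0.17, edgeR adjusted p = 2.6e-05), which placed shRNA2 near scramble. CXCL10, a chemokine, was also high with shRNA1 alone: it was at 19.0 and 10.9 CPM with scramble, 164 and 108 with shRNA1 and 18.2 and 12.5 with shRNA2 (-3.15 ± 0.25, edgeR adjusted p = 1.0e-04). Of 28 genes of IL-6, JAK-STAT and PIM signalling, 14 were lower and 1 higher (median -0.52). PIM1, a survival kinase induced by STAT3, was at 244 and 249 CPM with scramble, 446 and 486 with shRNA1 and 50.3 and 64.1 with shRNA2 (-3.03 ± 0.16, edgeR adjusted p = 2.9e-05). PIM1 thus lay above scramble with shRNA1 and below it with shRNA2.

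In the B cell and germinal centre list 20 of 32 were lower and 2 higher (median -1.03). CR2, the complement receptor of B cells, was at 32.6 and 32.5 CPM with scramble, 135 and 123 with shRNA1 and 13.7 and 15.03 with shRNA2 (-3.17 ± 0.14, edgeR adjusted p = 2.3e-05). Of 17 MHC class II genes 14 were lower and 1 higher (median -1.45). CIITA, their transactivator, was at 68.7 and 84.7 CPM with scramble, 87.4 and 99.3 with shRNA1 and 21.2 and 30.2 with shRNA2 (-1.86 ± 0.19, edgeR adjusted p = 2.3e-04). CIITA was a little above scramble with shRNA1 and well below it with shRNA2. HLA-DMB and HLA-DQA1, of the same class, gave -1.96 ± 0.19 and -2.21 ± 0.23. Of 16 MHC class I genes 10 were lower and 1 higher (median -0.50), and 5 were lower without shRNA2 replicate 1. TAP1, a peptide transporter, gave -0.75 ± 0.15 and ERAP2, a peptide-trimming enzyme, -1.63 ± 0.14. HLA genes are near copies of each other, and how shared reads were counted is not stated.

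Plasma cell identity genes split less: 13 of 30 were lower and 2 higher (median -0.34; 19 and 4 with the block, and 8 lower without shRNA2 replicate 2). CD38, a surface enzyme and myeloma antigen, was at 93.9 and 66.9 CPM with scramble, 325 and 263 with shRNA1 and 36.6 and 35.2 with shRNA2 (-3.04 ± 0.15, edgeR adjusted p = 2.6e-05). It was the gene of this list with the largest difference among those of at least 5 CPM, above scramble with shRNA1 and below it with shRNA2. IRF4, a transcription factor of plasma cells, went the other way within the pair: it was at 968 and 1106 CPM with scramble, 336 and 353 with shRNA1 and 517 and 502 with shRNA2 (0.56 ± 0.12, edgeR adjusted p = 0.00598; 0.0661 without shRNA2 replicate 1). Both hairpins were below scramble, shRNA1 further. Among 33 genes of the unfolded protein response and ER chaperones, 10 were lower and 2 higher (median -0.21), beside 22.3% lower and 18.2% higher over all genes. With the block 17 were lower and 8 higher, and 6 and 5 were lower without shRNA2 replicate 1 and 2. DNAJB9, a co-chaperone of BiP, gave -1.33 ± 0.15 and SEC24D, a COPII coat subunit, -1.52 ± 0.14.

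Lists of amino acid supply, respiration and protein synthesis and turnover had more genes higher than lower with shRNA2. Of 32 ATF4 targets and genes of amino acid supply, 23 were higher and 2 lower (median 0.81), and 15 were higher when all 6 libraries entered the fit. CHAC1, a glutathione-degrading enzyme, was at 13.0 and 14.1 CPM with shRNA1 and 73.4 and 72.4 with shRNA2 (2.42 ± 0.14, edgeR adjusted p = 3.8e-05). Its scramble libraries differed from each other, at 4.18 and 36.8 CPM, and so did those of SESN2, a stress-induced regulator of mTORC1, at 32.3 and 88.3 CPM against 56.9 and 61.4 with shRNA1 and 125 and 133 with shRNA2 (1.12 ± 0.13). SHMT2, the mitochondrial serine hydroxymethyltransferase, was at 156 and 256 CPM with scramble, 66.0 and 67.8 with shRNA1 and 199 and 203 with shRNA2 (1.58 ± 0.12, edgeR adjusted p = 8.7e-05). For SHMT2 the shRNA1 libraries stood below the other 4.

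Of 78 cytosolic ribosomal protein genes, 36 were higher and 0 lower with shRNA2 (median 0.35); 68 were higher and 3 lower with the block, and 23 and 16 were higher without shRNA2 replicate 1 and 2. RPS16 was at 900 and 1052 CPM with scramble, 255 and 310 with shRNA1 and 896 and 1063 with shRNA2 (1.79 ± 0.15, edgeR adjusted p = 1.3e-04). RPS3A was at 771 and 469 CPM with scramble, 218 and 186 with shRNA1 and 781 and 702 with shRNA2 (1.87 ± 0.14, edgeR adjusted p = 7.3e-05). These small-subunit proteins were at scramble level with shRNA2 and well below it with shRNA1, whereas RPL13A, of the large subunit, was above scramble with shRNA2 (1406 and 1271 CPM with scramble, 985 and 1144 with shRNA1 and 2189 and 2496 with shRNA2; 1.13 ± 0.13). Ribosomal protein genes have many processed copies in the genome, so their counts are uncertain where reads were split.

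Of 49 nuclear-encoded respiratory chain genes 35 were higher and 1 lower (median 0.60). UQCRC1, of complex III, was at 119 and 124 CPM with scramble, 50.8 and 59.5 with shRNA1 and 121 and 140 with shRNA2 (1.24 ± 0.14, edgeR adjusted p = 4.6e-04). NDUFA10, of complex I, gave 1.20 ± 0.12. Transcripts of the mitochondrial genome did not follow: 1 of 13 was higher and 0 lower (median -0.03; 2 and 2 with the block), the one being MT-ND6 (0.39 ± 0.13, edgeR adjusted p = 0.0495), which was not called without shRNA1 replicate 1 (0.228), shRNA2 replicate 1 (0.0624) or shRNA2 replicate 2 (0.265). Mitochondrial genes took 11.6% to 12.1% of the reads in the 4 hairpin libraries. Among 38 proteasome genes 18 were higher and 0 lower (median 0.36; 31 and 2 with the block, and 9 and 11 higher without shRNA2 replicate 1 and 2), with PSMB4 at 324 and 358 CPM with scramble, 101 and 115 with shRNA1 and 271 and 326 with shRNA2 (1.46 ± 0.14). Of 50 genes of the MYC network and ribosome biogenesis, 12 were higher and 3 lower (median 0.22; 33 and 7 with the block, and 7 and 5 higher without shRNA2 replicate 1 and 2). Among all protein-coding genes tested 21.0% were higher and 24.8% lower, so the number higher in this MYC list was near that share. NHP2 and FBL, of small nucleolar RNPs, gave 0.93 ± 0.18 and 0.84 ± 0.14, and MXI1, an antagonist of MYC, -1.43 ± 0.13.

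**Figure D3:**
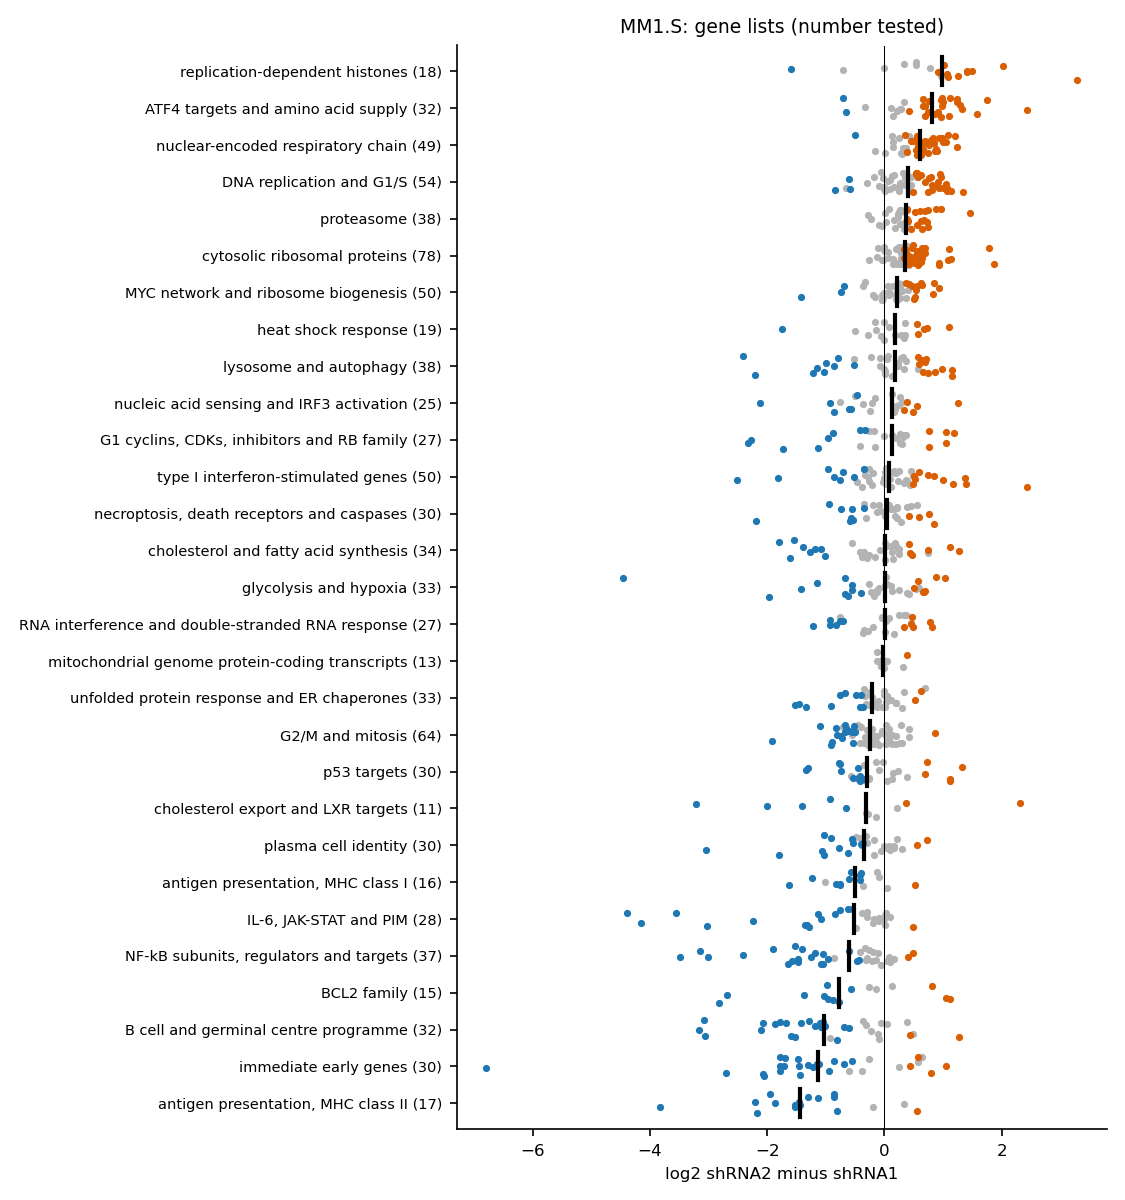
Difference between the hairpins (log2 shRNA2 minus shRNA1) for the tested members of each gene list, 1 point a gene, with a black bar at the list's median and the number tested in brackets. Orange points were called higher and blue points lower with shRNA2; MHC class II (median -1.45) and immediate early genes (-1.13) are at the bottom, and replication-dependent histones (0.99) and ATF4 targets (0.81) at the top.

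The medians of the 2 large cell cycle lists had opposite signs. Over all genes tested 18.2% were higher and 22.3% lower, and the number of mitosis genes lower was near that share. Of 54 DNA replication and G1/S genes 23 were higher and 3 lower with shRNA2 (median 0.40; 37 and 5 with the block). MCM6, of the replicative helicase, was at 272 and 258 CPM with scramble, 50.1 and 50.8 with shRNA1 and 111 and 112 with shRNA2 (1.14 ± 0.12, edgeR adjusted p = 3.2e-04). Both hairpins were below scramble, shRNA1 further. Of 64 G2/M and mitosis genes 17 were lower and 1 higher (median -0.24; 34 and 6 with the block, and 11 and 8 lower without shRNA2 replicate 1 and 2). BIRC5 (survivin) was at 145 and 141 CPM with scramble, 17.8 and 24.4 with shRNA1 and 5.39 and 5.79 with shRNA2 (-1.92 ± 0.20, edgeR adjusted p = 2.9e-04). Here too both were below scramble, but shRNA2 further. PRC1, a bundler of spindle microtubules, gave -1.10 ± 0.14, and the 1 higher gene was CDC20, an activator of the anaphase-promoting complex (0.86 ± 0.24, edgeR adjusted p = 0.0210; 0.0703 without shRNA1 replicate 1).

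Replication-dependent histones, whose transcripts mostly lack a poly(A) tail, were higher with shRNA2 for 10 of 18 and lower for 1 (median 0.99; 11 and 2 with the block). HIST1H1C, a linker histone, was at 8.68 and 8.65 CPM with scramble, 8.21 and 9.39 with shRNA1 and 24.0 and 22.9 with shRNA2 (1.41 ± 0.16, edgeR adjusted p = 3.9e-04), so shRNA1 was at scramble level. Of 27 G1 cyclins, CDKs, inhibitors and RB family genes 8 were lower and 5 higher, near the 22.3% and 18.2% over all genes. Their median was 0.13, and the block gave 10 lower and 12 higher. CCND1 (cyclin D1) was at 20.6 and 27.5 CPM with scramble, 17.9 and 21.9 with shRNA1 and 2.99 and 4.94 with shRNA2 (-2.33 ± 0.25, edgeR adjusted p = 3.0e-04). CDKN1A (p21) was at 163 and 196 CPM with shRNA1 and 125 and 145 with shRNA2, a difference of -0.42 ± 0.14 at the threshold (edgeR adjusted p = 0.0476). The CDKN1A call was not made by DESeq2 (adjusted p = 0.0506) or without shRNA1 replicate 2, shRNA2 replicate 1 or shRNA2 replicate 2 (edgeR adjusted p of 0.117 to 0.377).

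The counts of interferon-stimulated and sensing genes were near the background in both directions. Of 50 type I interferon-stimulated genes 11 were higher and 8 lower (median 0.07), against 18.2% higher and 22.3% lower over all genes; 19 and 15 were called with the block, 6 and 5 without shRNA2 replicate 1, 7 and 4 without shRNA2 replicate 2, and 5 were lower by DESeq2. UBA7, the activating enzyme of ISG15, was at 20.7 and 23.9 CPM with scramble, 25.3 and 29.2 with shRNA1 and 67.6 and 74.8 with shRNA2 (1.38 ± 0.14, edgeR adjusted p = 2.7e-04). MX2, an antiviral GTPase, was at 2.42 and 3.30 CPM with scramble, 12.1 and 11.7 with shRNA1 and 3.33 and 3.46 with shRNA2 (-1.82 ± 0.17, edgeR adjusted p = 2.0e-04). UBA7 was thus high with shRNA2 alone, and MX2 with shRNA1 alone. Of 25 genes that sense nucleic acids or activate IRF3, 5 were higher and 6 lower (13 and 11 with the block), also near those shares. TLR7, an endosomal RNA sensor, was at 28.3 and 26.5 CPM with scramble, 37.9 and 31.8 with shRNA1 and 7.79 and 8.24 with shRNA2 (-2.13 ± 0.16, edgeR adjusted p = 8.7e-05). Of 27 genes of RNA interference and the response to double-stranded RNA 6 were higher and 6 lower (10 and 11 with the block), again near the shares over all genes. TNRC6B and TNRC6C, partners of Argonaute, gave -0.82 ± 0.12 and -0.93 ± 0.14.

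Among cell death genes, 9 of 15 members of the BCL2 family were lower and 3 higher with shRNA2 (median -0.78). BCL2L11 (BIM), which promotes apoptosis, was at 235 and 203 CPM with scramble, 496 and 470 with shRNA1 and 177 and 197 with shRNA2 (-1.37 ± 0.12, edgeR adjusted p = 1.6e-04). HRK, of the same class, was at 1.80 and 2.68 CPM with scramble, 16.3 and 17.6 with shRNA1 and 2.57 and 2.25 with shRNA2 (-2.82 ± 0.18). Both were high with shRNA1 alone, while PMAIP1 (NOXA) was higher with shRNA2 (1.11 ± 0.21). Of 30 necroptosis, death receptor and caspase genes 8 were lower and 4 higher, near the 22.3% lower and 18.2% higher over all genes. With the block 12 were higher, and 3 and 4 were lower without shRNA2 replicate 1 and 2. Of 30 p53 targets 11 were lower and 5 higher (median -0.30; 18 and 9 with the block). Lower p53 targets numbered 7 with all 6 libraries in the fit, 6 without shRNA1 replicate 1, and 5 without either shRNA2 library; BTG2, an antiproliferative factor, gave -1.31 ± 0.12.

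Lipid synthesis genes were called about as often as all genes. Of 34 cholesterol and fatty acid synthesis genes 8 were lower and 6 higher (13 and 13 with the block), against 22.3% and 18.2% of all genes, and of 11 genes of cholesterol export and LXR targets 5 were lower and 2 higher. ABCA1, which exports cholesterol, was at 2.27 and 1.58 CPM with scramble, 50.2 and 36.1 with shRNA1 and 5.05 and 4.30 with shRNA2 (-3.21 ± 0.21, edgeR adjusted p = 5.5e-05). ABCA1 was high with both and highest with shRNA1, although NR1H3, which encodes the LXR-alpha receptor, was highest with shRNA2 (2.32 ± 0.18). Glycolysis and hypoxia genes were lower for 10 of 33 and higher for 7 (12 higher with the block, 5 lower without shRNA2 replicate 1, and 4 higher without shRNA2 replicate 2). PKM, the muscle-type pyruvate kinase, gave 1.03 ± 0.17. Heat shock genes were higher for 5 of 19 and lower for 1 (10 and 4 with the block), and lysosome and autophagy genes were higher for 12 of 38 and lower for 9 (20 higher with the block). GABARAPL1, an ATG8 protein of autophagosomes, gave -2.21 ± 0.14. List counts of 6 or fewer, in all the lists above, shifted by up to 4 genes when 1 library was left out.

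Markers of other cell types were low, but the summed levels of 3 lists differed between the hairpins without overlap. The summed level of 9 stromal and endothelial markers was 33.7 to 37.9 CPM in the scramble and shRNA1 libraries and 3.09 and 3.20 CPM with shRNA2; 4 of the 9 exceeded 1 CPM in any library and DCN and LUM had 0 reads. Most of that sum was PECAM1, an adhesion molecule also made by plasma cells (30.1 and 30.5 CPM with shRNA1 and 2.82 and 2.65 with shRNA2). The 10 monocyte and macrophage markers summed to 19.1 and 24.2 CPM with shRNA1 and to 1.92 to 3.19 CPM in the other 4 libraries, nearly all of it ITGAM, an integrin subunit of myeloid cells (18.3 and 22.9 CPM with shRNA1); MARCO and FCN1 had 0 reads. The 8 erythroid markers summed to 29.8 and 27.4 CPM with scramble, 8.76 and 10.3 with shRNA1 and 18.5 and 16.7 CPM with shRNA2, while HBA2 and HBG1 had 0 reads. The 11 T and NK cell markers summed to 4.93 to 9.20 CPM in all 6 libraries, with CD3G and NKG7 at 0. The part of other cells in the differences above was not tested.

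The same 2 hairpins were compared in H929, where each hairpin was first set against its own scramble group. Of 18213 genes tested with limma, 3634 (20%) were higher and 3984 (21.9%) lower with shRNA2 in that difference of differences. Over the 15513 genes tested in both lines, 1691 were higher in both, which is 55.7% of those higher in MM1.S and 50.7% of those higher in H929, where 21.5% of all these genes were higher. A further 1894 were lower in both, 57.0% of those lower in MM1.S and 54.1% of those lower in H929, against 22.6% of all. Calls in opposite directions numbered 260. The 2 differences had a Pearson correlation of 0.564 across genes, which are not independent replicates; the lines share the hairpins but no library.

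The genes with the largest differences shared by both lines were DDX60, EIF3L, CHAC1, KDF1 and MORC4 among those higher, and FOS, ENAH, PLXND1, ENPP1 and EMP2 among those lower. Set against scramble, they were not all placed alike in the 2 lines. DDX60 gave 2.54 with shRNA1 and 4.98 with shRNA2 in MM1.S, but -2.52 and 1.71 in H929. CHAC1 gave -0.60 and 1.83 in MM1.S, but -2.79 and -0.62 in H929. EIF3L and MORC4 were below scramble with shRNA1 in both lines. PLXND1 had low H929 values except with shRNA1, such as 5.05 and 1.44 with shRNA2. In H929 FOS differed by -5.23 ± 0.65 (limma adjusted p = 9.7e-06), ENAH by -4.18 ± 0.21, EMP2 by -3.86 ± 0.20, EIF3L by 3.46 ± 0.12 and CHAC1 by 2.18 ± 0.21. RPS16 and RPS3A gave 3.52 ± 0.13 and 3.45 ± 0.15, and 76 of 78 ribosomal protein genes were higher in H929 with none lower. Immediate early genes were lower for 24 of 32 and higher for 1 in H929, and respiratory chain genes higher for 38 of 49 and lower for 0. Of 64 mitosis genes 37 were higher and 5 lower in H929. Interferon-stimulated genes were higher for 32 of 51 and lower for 3 there. These list counts were not tested against those of MM1.S.

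**Figure D4:**
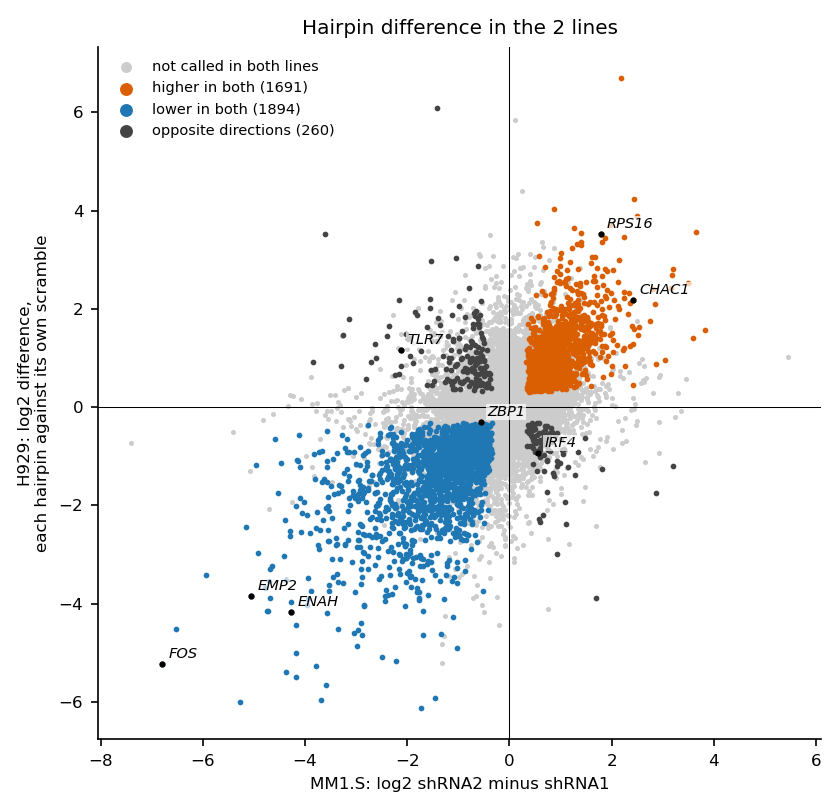
Hairpin difference in MM1.S (log2 shRNA2 minus shRNA1, horizontal) against that in H929 (each hairpin first set against its own scramble, vertical), 1 point for each of the 15513 genes tested in both. Orange and blue points were called in the same direction in both lines (1691 and 1894), and dark points in opposite directions (260), with IRF4 and TLR7 among the latter.

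To describe what the transcripts that separate the hairpins share in sequence, each 7-base word of the ZBP1 transcript (GENCODE 29) was looked up in the longest protein-coding transcript of each of the 10082 other genes with a mean of at least 5 CPM. The hairpins' own sequences were not used here. For each of the 1899 words held by at least 400 transcripts, the mean hairpin difference of its holders was taken after centring on transcript length in 10 bins, since length moved with the difference: the median transcript was 2861 bases among genes higher with shRNA2, 4273 among those lower and 3554 over all, with a Spearman correlation of -0.229 across genes. The windows below show the words at both ends of that ranking, because they mark 1 place each on the target. Capitals mark the word, read on the transcript strand, and each window comes from a single exon.
ZBP1, chr20:57613271-57613277 for the word, coding sequence of exon 5: gcacaatccaATCAACAtgatctg
ZBP1, chr20:57616349-57616355 for the word, coding sequence of exon 2: ccaagtcctcTACCGAAtgaaaaa
ZBP1, chr20:57616350-57616356 for the word, coding sequence of exon 2: accaagtcctCTACCGAatgaaaa

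The holders of ATCAACA, at position 734 of the ZBP1 transcript, had the lowest mean difference of the 1899 words, -0.15. The same word ranked lowest in H929, whose values did not choose it, at -0.10. Set against scramble, its holders ranked lowest with shRNA2 in MM1.S (-0.15) and in H929 (-0.13), and at rank 720 and 113 from the lowest with shRNA1. Of the 2471 genes that hold it, 33.0% were lower with shRNA2 in MM1.S, against 19.2% of the 7611 without it. The share was 42.6% for genes with the word in the 3' UTR and 27.2% for the 1542 with it elsewhere. In H929 the shares lower were 36.5% with the word and 23.4% without it. Holders had longer transcripts, with a median of 4888 bases against 3192. Among holders the median was 5805 bases with the word in the 3' UTR and 4440 with it elsewhere. None of these shares was centred on length. The word was chosen by the MM1.S hairpin difference, so its MM1.S shares and its MM1.S ranks against scramble are no check on it.

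At the other end, TACCGAA (position 326) had the highest mean difference, 0.18, followed by CTACCGA, which overlaps it by 6 bases (0.16). CTACCGA was carried on because it was the highest word in H929, so its ranks there are not independent of its choice. TACCGAA was chosen by the MM1.S difference and overlaps CTACCGA, so the MM1.S ranks and shares of these words are no check on them. In H929 TACCGAA and CTACCGA ranked second and first from the highest, at 0.22 and 0.26. With shRNA1 against scramble they held the 2 lowest ranks in MM1.S (-0.21 and -0.13) and in H929 (-0.24 and -0.24). With shRNA2 against scramble they were at rank 82 and 1759 from the lowest in MM1.S, at -0.03 and 0.03. Of 513 holders of CTACCGA 32.9% were higher with shRNA2 in MM1.S, against 23.5% of the 9569 without it. For TACCGAA it was 29.7% of 516 against 23.7% of 9566. With the word in the 3' UTR the shares higher were 28.6% for CTACCGA and 24.8% for TACCGAA, below the 34.1% and 31.7% with it elsewhere. For these words the larger share was thus outside the 3' UTR, unlike ATCAACA. In the plot of words by position these points stand away from the rest in both lines, beside a smaller group near position 497 whose lowest word had a mean of -0.12 in MM1.S and -0.08 in H929. A match is a description and not a site of pairing.

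**Figure D5:**
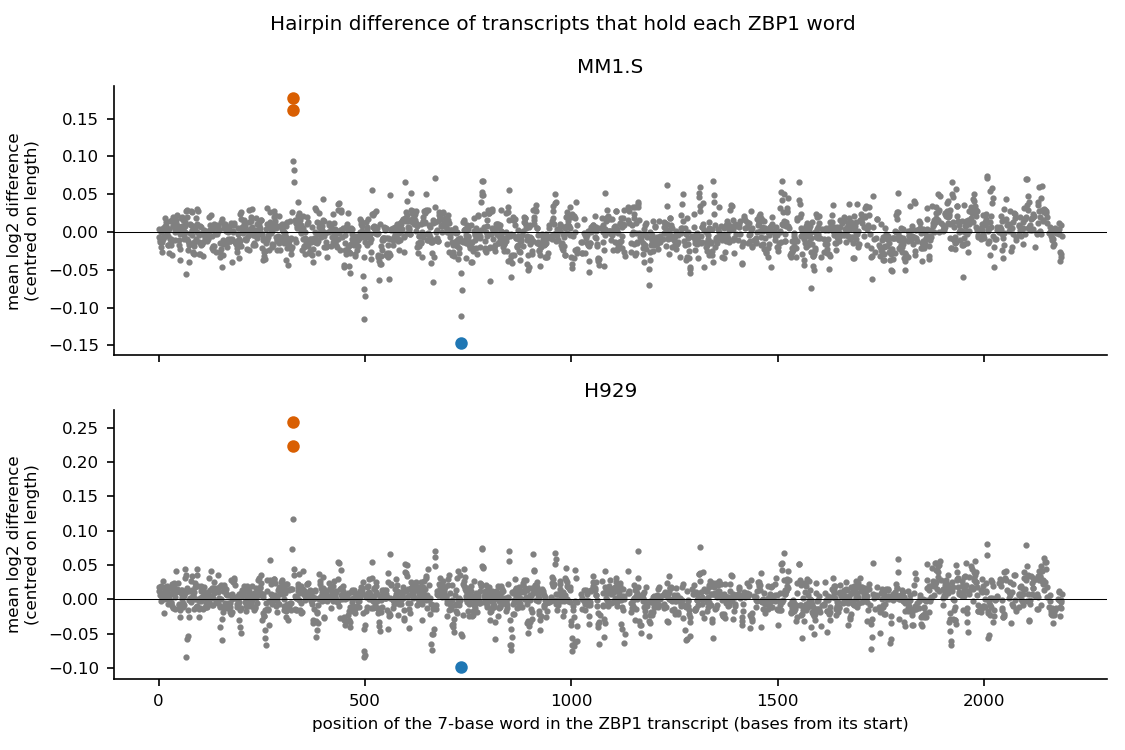
Mean hairpin difference, centred on transcript length, of the transcripts that hold each 7-base word of ZBP1, by the word's position in the ZBP1 transcript, for the 1899 words in MM1.S (top) and H929 (bottom). The blue point (position 734) is lowest in both lines, and the orange points (positions 325 and 326) are highest in both.

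The words and the named genes were both chosen by hairpin differences of these same data. Counts of words in these genes are therefore no check on the words, and the shares over all transcripts are not matched for length. Among all transcripts, 24.5% hold ATCAACA. Of the 16 named genes that were lowest, or lower in both lines, 7 held it, namely ADAMTS3, CHRNA1, EMP2, ENAH, PLCH2, PLXND1 and ENPP1. FOS did not. Of the 15 highest, CAMTA1 and MORC4 held TACCGAA, and CAMTA1 and CHAC1 held CTACCGA, with FAM83H, where 5.12% and 5.09% of all transcripts hold these words. RPS16 and RPS3A, chosen after their values were seen, are 2 of the 4 ribosomal protein genes of 78 that hold CTACCGA. The windows that follow show where a word lies in some of its holders among the genes described above. Regions and exons are those of the longest protein-coding transcript and can differ in another transcript of the gene. The 3' UTR label of RPS16 is thus given for that transcript only.
EMP2, chr16:10531744-10531750 for the word, minus strand, 3' UTR, exon 5: tcattcattcATCAACAtaaatca
ENAH, chr1:225493027-225493033, minus strand, 3' UTR, exon 15: gatactcaccATCAACAtaaataa
ENAH, chr1:225487467-225487473, minus strand, 3' UTR, exon 15: cttgttttaaATCAACAtactata
PLXND1, chr3:129563183-129563189, minus strand, coding sequence, exon 26: caagcagcaaATCAACAagggctc
CAMTA1, chr1:7751319-7751325, plus strand, coding sequence, exon 20: ccaaaagtacTACCGAAgttataa
RPS16, chr19:39433276-39433282, minus strand, 3' UTR, exon 4: accagaaatcCTACCGAtaagccc
RPS3A, chr4:151102902-151102908, plus strand, coding sequence, exon 4: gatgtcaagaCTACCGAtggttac

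EMP2 and ENAH, with their windows in the 3' UTR, were low with shRNA2, and RPS16 and RPS3A were low with shRNA1. Other holders were placed otherwise. For ADAMTS3, CHRNA1, PLCH2 and PLXND1, which hold ATCAACA, scramble lay nearer shRNA2 and the shRNA1 libraries stood above it. Among holders of the other words, scramble lay above both hairpins for CAMTA1, nearer shRNA2 for MORC4, nearer shRNA1 for FAM83H and below both for CHAC1. Windows were taken only from genes whose difference had the direction of the word. Some holders described above went the other way. KLF2 holds TACCGAA and CTACCGA, and ABCA1 holds CTACCGA, but both genes were lower with shRNA2. RPL13A and SESN2 hold ATCAACA but were higher with shRNA2. Whether either hairpin pairs with the places in the windows was not tested. GC content moved less with the hairpin difference (Spearman 0.104 across genes) than with the difference between replicate 1 and replicate 2, where it was -0.853 for shRNA1, -0.806 for shRNA2 and -0.813 for scramble. Promoter windows from RefSeq (GRCh38.p14), 250 bases before to 50 after the start, were matched by symbol for 10615 genes tested. On either strand the cyclic AMP response element was in 4.08% of the windows of genes higher with shRNA2, 2.55% of those lower and 3.14% of all. The NF-kB motif was in 6.25%, 7.77% and 6.61%, the CArG box in 0.975%, 1.02% and 0.980%, the interferon-stimulated response element in 2.53%, 3.30% and 3.10%, and the E2F motif in 5.23%, 4.28% and 4.94%. These shares describe the letters in the windows alone.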

How the data were processed

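Poly(A)-selected RNA of MM1.S and H929 cells was sequenced by the submitters; per the submitters' processing notes, STAR 2.5.3a and DESeq2 1.24.0 were used on GRCh38. The counting tool and annotation release are not given in the sources used here. The MM1.S table that the authors deposited holds 1 raw count for each Ensembl identifier and library, per the file headers. The H929 table is labelled as counts, but its deposited values are a signal, namely reads divided by 1 size factor per library: 100% of the values above 0 came out whole within 0.01. Of the 58069 genes in a table, 18 with a repeated identifier were dropped. The shRNA2 columns were assigned to their samples by elimination, per the file headers.

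MM1.S counts of the 4 hairpin libraries were fitted with edgeR 4.0.16 in R 4.3.3 (TMM, filterByExpr with a minimum count of 10, quasi-likelihood F test, Benjamini-Hochberg adjustment over all genes tested). H929 was fitted by limma-trend (limma 3.58.1) after adding 1 and taking log2, for genes at 10 or more in at least 2 libraries. That was the planned fit for values already scaled between libraries, and the H929 differences are on that log2 scale. The position of scramble used log2 of CPM plus 0.5. Alternatives were median-of-ratios scaling, DESeq2 1.42.0, no filter, all 6 MM1.S libraries, a replicate block and each library left out. The gene fits were tested on simulated data. The replicate numbers were taken to pair the MM1.S libraries in the block alternative alone, and the fit reported did not use them. The reason for the pairing was that across 9467 genes the deviations of same-numbered libraries correlated at 0.67, 0.629 and 0.849. The labels leave the meaning of the numbers unsaid. Libraries of a group differed by 14.9 to 30.3 times counting error (chi-square over its degrees of freedom), which is beyond what depth sets.

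The 2 groups, the 34 gene lists (5 of them marker lists) and the comparisons were chosen with earlier results of these data known, and the scan of ZBP1 words was chosen after seeing the data. Named genes were ZBP1 and 8 related genes, the 15 highest and 15 lowest called genes of at least 5 CPM whose groups did not overlap, up to 4 called genes per list, and 5 each way shared with H929; of these, the genes that carry the account are reported. A few genes of the lists are not reported here by name. Gene models came from GENCODE 29 and promoters from RefSeq.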

Additional observations from a re-analysis of the deposited data

Results flagged for a closer look

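Of the genes the text names, 6 were called in opposite directions in MM1.S and H929, and the difference between the lines itself passed with limma. That fit held the 4 MM1.S hairpin libraries and the 8 H929 libraries, without the MM1.S scramble libraries. The value given first is the MM1.S hairpin difference minus that of H929 (log2). It was 3.54 for PMAIP1 (NOXA), which was higher with shRNA2 in MM1.S (1.11 ± 0.21) and lower in H929 (-2.38 ± 0.31). It was 1.52 for IRF4, higher with shRNA2 in MM1.S (0.56 ± 0.12) and lower in H929 (-0.93 ± 0.14). It was -3.65 for MX2 (-1.82 ± 0.17 in MM1.S and 1.87 ± 0.38 in H929), -3.25 for TLR7 (-2.13 ± 0.16 and 1.16 ± 0.43), -1.10 for MLKL (-0.59 ± 0.16 and 0.54 ± 0.15) and -0.88 for CDKN1A (-0.42 ± 0.14 and 0.49 ± 0.13). Over all genes tested in both lines, 260 were called in opposite directions, against 1691 higher and 1894 lower in both.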

How the results depend on the processing

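The number of genes higher with shRNA2, 3134 in the fit reported, was 5650 with the replicate block, and 1936 to 3062 without 1 library each; the number lower, 3847, was 2987 to 3715 without 1 library. In H929, 3634 genes were higher in the difference of differences and 5498 when shRNA2 was set directly against shRNA1 without scramble. The edgeR test on the reads recovered from the H929 table, added after seeing the data, called 3885 higher and 3792 lower, and a replicate block there, where the numbers do not pair the libraries (correlations of -0.167 to 0.204), called 3639 and 3985. ZBP1 ranged from -0.70 to -0.42 without 1 library, and lost its call without shRNA1 replicate 2 or shRNA2 replicate 1. RIPK3, not called, ranged from -0.01 to 0.17 without 1 library, the lowest without shRNA1 replicate 1. The word ATCAACA ranked lowest in MM1.S with 3 ways of centring, and lowest or second from the lowest in H929 (the latter without centring). With 2 libraries a group, 1 library often decides a call near the threshold, and differences of genes with few reads, such as FOS with shRNA2, are imprecise.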
